A study of Mus musculus with 4 samples.

Results

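Hedgehog signaling in the sciatic nerve was described through 8 genes of the pathway, out of 22716 genes with a unique molecular identifier (UMI) in any library. The 8 were chosen by name and not by their values. They were the ligands Dhh and Shh, the receptor Ptch1, the signal transducer Smo, the ligand-binding inhibitor Hhip and the transcription factors Gli1, Gli2 and Gli3. All 8 were listed in the 3 days post-injury (DPI) and FACS-sorted neonatal matrices, and 7 were listed in the uninjured and bead-treated neonatal matrices, which held no Shh UMI.

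Hedgehog proteins are secreted signals that bind the receptor PTCH1. Without ligand, PTCH1 keeps SMO inactive, and ligand binding frees SMO to signal to the GLI transcription factors. Gli1, Ptch1 and Hhip are themselves transcribed in answer to the signal, so their mRNAs are commonly read as a sign of a responding cell. In the peripheral nerve, Desert hedgehog (DHH) from Schwann cells is known for its role in forming the perineurium and the connective tissue sheaths.

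Cells came from wildtype CD1 mice and were profiled by Drop-seq, in which each droplet barcodes the mRNA of a cell from its 3′ end. The 4 libraries were the distal nerve of adults 3 d after unilateral resection (3 DPI), the uninjured nerves of adults, neonatal nerves of postnatal days 2 to 3 and neonatal nerves of postnatal days 3 to 4. The first 3 were cleared with myelin removal beads, and the last was sorted by FACS for nucleated, propidium iodide-negative cells. Each group was 1 library, how many animals were pooled into it was not stated in the sources used, and no test between conditions was made. Age and preparation differed together between the neonatal libraries and cannot be told apart.

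The libraries held from 4513814 to 8123103 UMIs, and 2162 cells at 3 DPI, 1837 uninjured cells, 2190 FACS cells and 5419 bead-treated neonatal cells were kept. Pairs of libraries shared 0 to 3 cell barcodes. Cells were clustered without the Hedgehog genes and named from marker lists. Schwann-like cells had UMIs of 7 of 7 Schwann markers in each library except at 3 DPI, where Gfra3 was at 0, and 5 of 5 endoneurial and 5 of 5 perineurial markers had UMIs in the classes named for them. Epineurial-like cells had UMIs of 7 of 7 markers except in the bead-treated library, where Comp was at 0. Since these lists named the classes, the counts do not check the naming. All 5 endoneurial markers also had UMIs in 3 DPI Schwann-like cells, at 3.47% of the summed endoneurial-like level. Schwann-like cells numbered 141 at 3 DPI, 358 in the uninjured nerve, 1210 in the FACS library and 3662 in the bead-treated neonatal library, and endoneurial-like cells numbered 266, 417, 88 and 193. No cluster at 3 DPI was perineurial-like, and 123 cells of that library, with a median of 453 UMIs, were left unnamed. A level (CPM) is the number of UMIs of a gene in a class per 1000000 UMIs that the class held in total, and its 95% interval is an exact Poisson one. Shares of cells with a UMI have exact Clopper-Pearson 95% intervals, and both intervals cover counting error only. Where a limit is given for a class without a UMI, it is the floor of 3 counts, and beside it stands the upper limit of the exact interval, which is higher. Levels were compared between classes and not between genes.

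In the RefSeq annotation of GRCm38.p6, the ligand genes lie at chr15:98881615-98898562 (Dhh) and chr5:28456840-28467101 (Shh). The receptor Ptch1 lies at chr13:63508328-63573460, Smo at chr6:29735497-29761366 and Hhip at chr8:79965850-80058060. The Gli genes lie at chr10:127329882-127341579 (Gli1), chr1:118834061-119054405 (Gli2) and chr13:15463723-15730026 (Gli3). The RefSeq promoter table of the same build matched 6 of the 8 genes. The sequence upstream of Dhh, Ptch1 and Hhip is shown because the class differences below turn on the ligand, the receptor and the inhibitor. Each stretch is the first 190 of the 250 bases before the annotated start, written 5′ to 3′ on the minus strand, and the 60 bases next to the start were left out because other annotated transcripts begin there. Dhh was read at chr15:98898601-98898790, Ptch1 at chr13:63565796-63565985, inside an intron of longer Ptch1 transcripts, and Hhip at chr8:80058069-80058258. Capitals mark the GC box GGGCGG on either strand.
Dhh: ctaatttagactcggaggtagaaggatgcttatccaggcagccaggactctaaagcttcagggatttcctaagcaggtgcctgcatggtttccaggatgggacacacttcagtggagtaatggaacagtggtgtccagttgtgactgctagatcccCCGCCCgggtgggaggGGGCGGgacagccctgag
Ptch1: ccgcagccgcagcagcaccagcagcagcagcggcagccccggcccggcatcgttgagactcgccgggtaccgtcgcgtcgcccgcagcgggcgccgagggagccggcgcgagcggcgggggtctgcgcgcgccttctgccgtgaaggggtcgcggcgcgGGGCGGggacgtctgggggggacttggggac
Hhip: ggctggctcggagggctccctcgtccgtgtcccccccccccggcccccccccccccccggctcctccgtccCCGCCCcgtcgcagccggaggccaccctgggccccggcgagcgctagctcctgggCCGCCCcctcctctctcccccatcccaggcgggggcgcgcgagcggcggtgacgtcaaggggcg
The GC box occurred 2 times upstream of Dhh, 1 time upstream of Ptch1 and 2 times upstream of Hhip, and 22.8% of all 32851 promoter windows of this length held it. G and C made up 55.8% of the Dhh window, 78.9% of the Ptch1 window and 82.1% of the Hhip window. The 9-base Gli consensus GACCACCCA, searched on both strands, was in 0.180% of all windows and in none of the 6 matched members, and its core ACCACCC, which lies within the consensus, was in 2.98% of all windows and among the members in Gli2. These matches describe letters in these windows only.

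Dhh was the ligand of Schwann-like cells in every library. At 3 DPI these cells held 53 Dhh UMIs, or 118 CPM (88.1 to 154), and 26.2% of the 141 cells (19.2 to 34.3) had a UMI. In the uninjured nerve they held 72 UMIs, 173 CPM (135 to 218), in 15.9% of 358 cells. In the neonatal nerve the level was 264 CPM (243 to 287) in the FACS library and 258 CPM (243 to 274) in the bead-treated library, with a UMI in 29.3% and 21.1% of cells. The 2 neonatal intervals overlapped, and both lay above the adult intervals. The Schwann-like cells held 67.9% of the 3 DPI library's Dhh UMIs, 75.0% of those of the uninjured nerve, 95.6% in the FACS library and 94.2% in the bead-treated library, against 6.20%, 10.3%, 46.5% and 57.7% of all UMIs. In the same order, the median depths of these cells were 1925, 986.5, 1333 and 917 UMIs. After thinning to 500 UMIs per cell, Dhh stood at 128 CPM at 3 DPI and 147 CPM in the uninjured nerve.

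Summed counts per class and library were compared with edgeR's quasi-likelihood test, each class against the mean of the other 6 and with library as a block. Left out of the contrasts were unnamed cells and mesenchymal-like cells not named endoneurial-, epineurial- or perineurial-like (other mesenchymal-like). The latter numbered 366 at 3 DPI, 163 in the FACS library and 254 in the bead-treated neonatal library. Of the 8 genes, 6 passed the count filter, and Shh and Gli2 did not. Dhh was 5.13 ± 0.26 higher in Schwann-like cells on the log2 scale (SE, edgeR, adjusted p = 1.01e-14, 4 libraries). It was the only one of the 6 genes higher in Schwann-like cells, and Gli1 was the only one lower, where 18.4% of all 10541 genes tested were called higher and 13.8% lower. Because classes were built from the same cells, these p-values describe the rebuilt classes.

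Within Schwann-like cells, Dhh was not restricted to a subtype. In the uninjured nerve it stood at 255 CPM (167 to 374) in 80 myelinating-like cells and 146 CPM (107 to 195) in 278 non-myelinating-like cells. In the FACS library it was 239 CPM in dividing, 244 in non-myelinating-like, 283 in myelinating-like and 291 in premyelinating-like cells. The bead-treated neonatal library gave 226, 259, 338 and 290 CPM for the same subtypes, the myelinating-like value resting on 19 cells. Within each library, the intervals of neighbors in these orders overlapped.

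A lower level of Dhh was measured in endothelial-like cells, which line the vessels of the nerve. They held 20 UMIs at 3 DPI, 18.3 CPM (11.2 to 28.3), and 20 in the uninjured nerve, 15.6 CPM (9.53 to 24.1). The FACS library held 9 UMIs, 24.1 CPM (11.02 to 45.7), and the bead-treated neonatal library 52 UMIs, 50.5 CPM (37.8 to 66.3). A Dhh UMI was found in 8.16%, 4.36%, 5.48% and 7.66% of endothelial-like cells in these libraries (median depths 1967, 1860, 2035.5 and 1385 UMIs), and the other non-Schwann classes ranged from 0 to 16.8 CPM.

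Dhh was set beside the Schwann markers in the same endothelial-like cells, and the part of free RNA in its level there was not tested. Relative to its level in Schwann-like cells, Dhh reached 15.6% at 3 DPI, 9.01% in the uninjured nerve, 9.12% in the FACS library and 19.6% in the bead-treated library. In the same order, the median of the Schwann markers was 0.394%, 0.315%, 1.44% and 2.64%. It was taken over 6 markers at 3 DPI, where Gfra3 had no UMI in Schwann-like cells, and over 7 elsewhere. Dhh lay above all of these markers in the 3 DPI, uninjured and bead-treated libraries, and 1 marker lay above it in the FACS library, at 30.2%. Dhh was called higher in endothelial-like cells than in the mean of the other 6 classes (log2 difference 1.80 ± 0.35, SE, edgeR adjusted p = 0.000173), where 17.5% of genes were higher and 12.7% lower. In a contrast with the non-Schwann classes alone, chosen after the levels had been seen, the difference was 2.73 ± 0.37 (SE, edgeR adjusted p = 1.37e-06), against 17.9% of genes called higher. In the uninjured nerve, 3 endothelial-like clusters held Dhh at 8.56 CPM (led by Slco1a4 and Cldn5), 15.6 CPM (led by Rbp7 and Gpihbp1) and 22.2 CPM (led by Selp and Darc), with overlapping intervals.

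Shh, better known for patterning the neural tube and limb, was nearly limited to the 3 DPI library. Schwann-like cells there held 33 of its 39 Shh UMIs, 73.3 CPM (50.4 to 103), in 14 of 141 cells (9.93%, 5.54 to 16.1). The other 6 UMIs lay in endothelial-like (2), other mesenchymal-like (2), endoneurial-like (1) and immune-like (1) cells, all at or below 1.83 CPM. In uninjured Schwann-like cells 0 of 358 cells had a UMI, which by 3 counts allows a share of cells with a UMI of up to 0.838% (exact upper limit 1.03%). In the bead-treated neonatal library it was 0 of 3662 cells, which by 3 counts allows up to 0.0819% (exact upper limit 0.101%). The FACS library held 2 Shh UMIs, 1 of them in Schwann-like cells. Against a floor of 3 counts in the uninjured class, the 3 DPI level was 10.2-fold higher. The exact lower limit of the ratio, which also covers the counting error of the 3 DPI UMIs, was 7.81. After thinning, where 6 UMIs in 4% of 125 cells remained, these values were 5.46 and 3.21.

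The 14 Shh-positive Schwann-like cells held 1 UMI in 8 cells, 2 in 2 cells, 3 in 1 cell, 4 in 1 cell and 7 in 2 cells. Their median depth was 5624 UMIs, against 1881 in the 127 cells without Shh, and the part of depth in their detection was not tested. Dhh was found in 64.3% of them and 22.0% of the others, yet the Dhh level was 119 CPM and 117 CPM, so the levels were nearly equal. A UMI of the division markers Mki67 or Top2a was found in 28.6% of the cells with Shh and 26.8% of those without. The part of depth in these shares was not tested. Ihh, the remaining mammalian Hedgehog ligand, had 1 UMI in Schwann-like cells of the uninjured and 1 of the bead-treated neonatal library and 0 in the other classes.

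**Figure D1:**
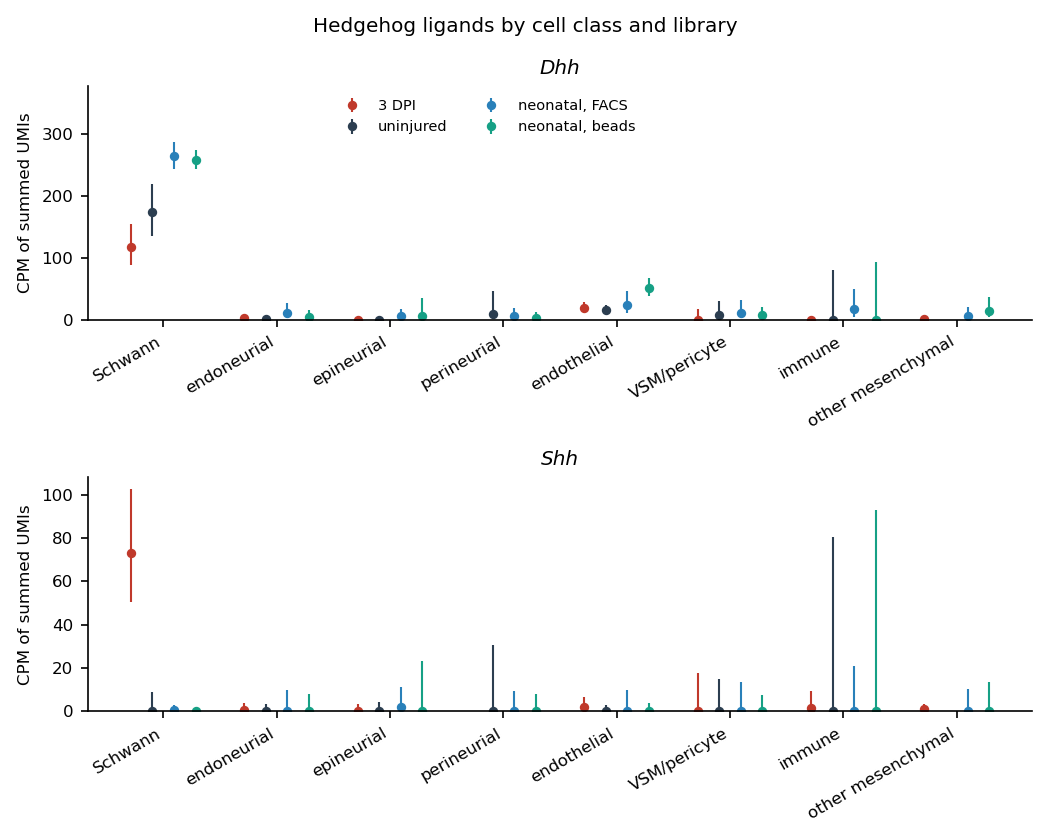
Dhh (top) and Shh (bottom) by cell class, as CPM of summed UMIs (points) with exact Poisson 95% intervals (bars), each library in its own color. Dhh was highest in Schwann-like cells of every library, with a lower level in endothelial-like cells, and Shh stood at 73.3 CPM in 3 DPI Schwann-like cells and at most at 2.01 CPM elsewhere. Wide bars in immune-like cells come from classes of 34 and 38 cells.

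Ptch1, the receptor that also rises with pathway activity, was highest in endoneurial-like cells of the adult libraries in the main clustering. That clustering held no perineurial-like class at 3 DPI. In the neonatal libraries Ptch1 was highest in perineurial-like cells, with intervals that overlapped those of endoneurial-like cells. Endoneurial-like cells held 48 Ptch1 UMIs at 3 DPI, 32.2 CPM (23.8 to 42.7), and 13 in the uninjured nerve, 12.2 CPM (6.51 to 20.9). The FACS library held 4, 10.4 CPM (2.82 to 26.5), and the bead-treated neonatal library 12, 25.6 CPM (13.2 to 44.7). The 3 DPI and uninjured intervals did not overlap, and those of the neonatal libraries overlapped each other. Perineurial-like cells held 11 UMIs in the FACS library, 28.4 CPM (14.2 to 50.8), and 16 in the bead-treated library, 34.5 CPM (19.7 to 56.0). In 64 uninjured perineurial-like cells no UMI was found, which by 3 counts allows up to 24.7 CPM (exact upper limit 30.4), and the neonatal intervals reached below both. A finer clustering split off perineurial-like cells at 3 DPI, which held Ptch1 at 44.3 CPM (17.8 to 91.3). The endoneurial-like cells of that clustering held 30.4 CPM (21.8 to 41.2), and these intervals overlapped. The order of these classes at 3 DPI was thus not settled.

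Epineurial-like cells, the outer connective tissue cells, held little Ptch1. No UMI was found in 427 cells at 3 DPI, which by 3 counts allows up to 2.51 CPM (exact upper limit 3.08), nor in 145 cells of the bead-treated neonatal library, and 2 and 4 UMIs were found in the uninjured and FACS libraries (2.34 and 8.03 CPM). Schwann-like cells stood at 4.44 CPM at 3 DPI, 2.40 in the uninjured nerve, 2.33 in the FACS library and 3.75 in the bead-treated library, with intervals that overlapped those of endothelial-like cells in each library. The mesenchymal-like classes together held 94.9% of the 3 DPI library's Ptch1 UMIs, 83.3% of those of the uninjured nerve, 75.0% in the FACS library and 57.1% in the bead-treated library, against 67.6%, 50.6%, 35.5% and 19.8% of all UMIs. These shares include the other mesenchymal-like cells. The low counts, from 18 to 59 Ptch1 UMIs per library in named classes, limit what can be told between the remaining classes.

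Ptch1 was 3.32 ± 0.55 higher in endoneurial-like cells than in the mean of the other 6 classes on the log2 scale (SE, edgeR adjusted p = 6.19e-05), and 3.16 ± 0.69 higher in perineurial-like cells (SE, edgeR adjusted p = 0.00219). Without the bead-treated neonatal library the perineurial call was lost (adjusted p = 0.105). Of the 6 genes tested, Ptch1, Gli1 and Gli3 were higher in endoneurial-like cells and none lower, where 13.9% of all genes were higher and 5.55% lower. In perineurial-like cells Ptch1, Hhip and Gli1 were higher and none lower, where 9.78% of genes were higher and 3.42% lower. Between the mesenchymal-like classes, in contrasts chosen after the levels had been seen, Ptch1 was 2.96 ± 0.77 higher in endoneurial-like than in epineurial-like cells (SE, edgeR adjusted p = 0.0122, background 4.39% higher and 5.67% lower). That call was lost without the 3 DPI library (1.87, adjusted p = 0.199) and without the bead-treated neonatal library (2.82, adjusted p = 0.101). Ptch1 was lower in epineurial-like than in perineurial-like cells (log2 difference -2.83 ± 0.87, SE, edgeR adjusted p = 0.0488, background 3.75% higher and 3.52% lower), a call lost under 6 of the alternatives. The endoneurial minus perineurial difference of 0.13 ± 0.66 did not pass (adjusted p = 0.972).

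Smo, the membrane protein that Ptch1 restrains, was spread across classes. Its level in epineurial-like cells was 23.4 CPM at 3 DPI, 25.7 in the uninjured nerve, 56.2 in the FACS library and 69.1 in the bead-treated library. In endoneurial-like cells it was 23.5, 15.99, 23.3 and 40.5 CPM, and in perineurial-like cells 32.9 CPM in the uninjured nerve, 38.7 in the FACS library and 45.2 in the bead-treated library. Schwann-like cells held 13.3, 16.8, 31.7 and 28.5 CPM, so Smo mRNA was measured in the ligand-bearing class as well. Endothelial-like cells ranged from 9.36 to 18.7 CPM, VSM/pericyte-like cells from 8.10 to 52.3 CPM and immune-like cells from 0 to 11.2 CPM. In the class contrasts Smo was higher in epineurial-like cells (log2 difference 1.31 ± 0.28, SE, edgeR adjusted p = 0.000978) and lower in immune-like cells (-2.68 ± 0.64, SE, edgeR adjusted p = 0.00177). In Schwann-like cells the difference was 0.16 ± 0.28 (edgeR adjusted p = 0.749).

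Gli1, a transcription factor whose mRNA depends on Hedgehog activity in many tissues, was carried by every mesenchymal-like class. Endoneurial-like cells held 161 UMIs at 3 DPI, 108 CPM (92.0 to 126), and 103 in the uninjured nerve, 96.9 CPM (79.1 to 118). The neonatal values were 101 CPM (71.9 to 138) in the FACS library and 76.7 CPM (53.7 to 106) in the bead-treated library. These 4 intervals overlapped. The share of endoneurial-like cells with a UMI was 38.3%, 19.4%, 28.4% and 13.5% in these libraries. The median depths of the class were 4781.5, 2175, 4127 and 2032 UMIs, which ranked the libraries alike. The part of depth in these shares was not tested. Thinned to 500 UMIs, the shares were 5.56% at 3 DPI and 3.65% in the uninjured nerve, and the levels 111 and 77.9 CPM.

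Perineurial-like cells had the highest Gli1 level in each library that held them, with 139.9 CPM (81.5 to 224) in the uninjured nerve, 165 CPM (127 to 211) in the FACS library and 140.0 CPM (108 to 179) in the bead-treated library. Their intervals overlapped those of the endoneurial-like cells in the uninjured and FACS libraries and lay just above in the bead-treated library. Epineurial-like cells followed with 56.0 CPM at 3 DPI, 37.4 in the uninjured nerve, 84.3 in the FACS library and 94.2 in the bead-treated library. Other mesenchymal-like cells held 68.3 CPM at 3 DPI, of which 77.5 in bridge-like and 60.9 in dividing cells, and 144 and 86.9 CPM in the neonatal libraries. In the adult libraries the epineurial-like interval lay below the endoneurial-like one, and in the neonatal libraries both overlapped.

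Schwann-like cells held 11.1 CPM of Gli1 at 3 DPI, 2.40 in the uninjured nerve, 3.26 in the FACS library and 3.00 in the bead-treated library. Relative to endoneurial-like cells this was 10.3%, 2.48%, 3.23% and 3.92%, while the median of the mesenchymal markers in the same Schwann-like cells was 8.97%, 5.13%, 4.58% and 4.16%. Gli1 lay within the range of these markers in each library, which was 2.73% to 17.5% at 3 DPI and as wide as 1.46% to 40.6% in the uninjured nerve, and above their median at 3 DPI. The part of free RNA in the Schwann-like level was not tested. The mesenchymal-like classes, other mesenchymal-like cells included, held 96.0% of the 3 DPI library's Gli1 UMIs, 88.4% of those of the uninjured nerve, 92.1% in the FACS library and 86.4% in the bead-treated library. Of all UMIs, these classes held 67.6%, 50.6%, 35.5% and 19.8% in the same order. Outside them, 40.5 CPM (19.4 to 74.5) was measured in uninjured VSM/pericyte-like cells, all 10 UMIs of which lay in a cluster of 87 cells with Rgs5, Kcnj8 and Abcc9 among its leading genes (104 CPM, 49.9 to 191). The cluster of 92 cells with Myh11 and Acta2 among its leading genes had 0. The uninjured class reached 41.8% of the endoneurial-like Gli1 level, where the mesenchymal markers had a median of 2.65% and a highest value of 46.8%. VSM/pericyte-like cells also held 9 Gli1 UMIs in the FACS and 8 in the bead-treated neonatal library, 32.0% and 21.2% of the endoneurial-like level. The marker medians there were 2.10% and 2.17%, and the highest values 39.7% and 30.7%. At 3 DPI this class held 1 Gli1 UMI, 4.40% of the endoneurial-like level.

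Gli1 was higher in perineurial-like (log2 difference 3.20 ± 0.30, edgeR adjusted p = 6.39e-09), endoneurial-like (2.66 ± 0.25, adjusted p = 3.66e-09) and epineurial-like cells (1.87 ± 0.28, adjusted p = 8.47e-06) than in the mean of the other 6 classes. It was lower in Schwann-like cells (-2.93 ± 0.41, edgeR adjusted p = 1.78e-06), endothelial-like cells (-2.84 ± 0.42, adjusted p = 4.35e-06) and immune-like cells (-1.95 ± 0.62, adjusted p = 0.0174). The immune-like call was lost without the 3 DPI library (adjusted p = 0.119) and without the FACS library (adjusted p = 0.0708). Of the 6 genes, none was called in VSM/pericyte-like cells, where 11.8% of genes were higher and 7.54% lower, and Gli1 and Smo were lower and none higher in immune-like cells, where 13.7% were lower and 16.1% higher. The 3 mesenchymal-like classes together, a contrast chosen after the levels had been seen, differed from the other classes in all 6 genes tested, against 20.1% of genes higher and 17.3% lower. Gli1 was 3.86 ± 0.24 higher (SE, edgeR adjusted p = 8.09e-13), Hhip, Ptch1, Gli3 and Smo were higher by 4.23, 3.18, 1.78 and 1.49, and Dhh was lower (-2.60 ± 0.52, edgeR adjusted p = 0.000249), a call lost without the FACS library (adjusted p = 1). Gli1 did not pass between endoneurial-like and epineurial-like cells (0.67 ± 0.32, edgeR adjusted p = 0.231) or between endoneurial-like and perineurial-like cells (-0.46 ± 0.35, adjusted p = 0.543).

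**Figure D2:**
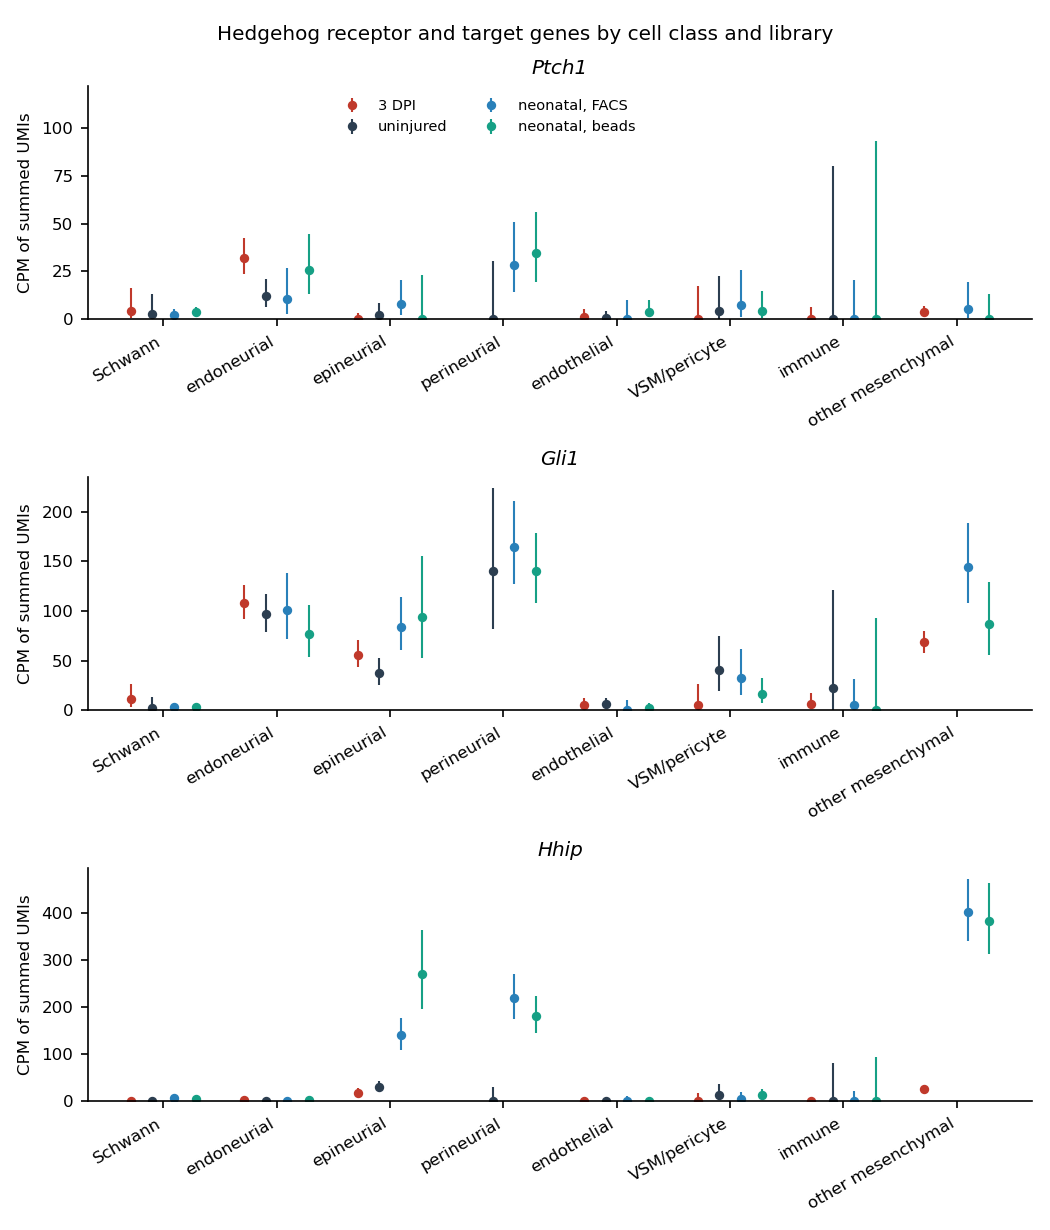
Ptch1 (top), Gli1 (middle) and Hhip (bottom) by cell class, as CPM of summed UMIs (points) with exact Poisson 95% intervals (bars), each library in its own color. Classes are those of the main clustering, which held no perineurial-like class at 3 DPI. Among them, Ptch1 was highest in endoneurial-like cells of the adult libraries, with no UMI in uninjured perineurial-like cells. In the neonatal libraries it was highest in perineurial-like cells, with intervals that overlapped those of endoneurial-like cells. Gli1 was present in all mesenchymal-like classes. Hhip was near 0 in endoneurial-like cells and reached 403 CPM in other mesenchymal-like cells of the FACS library.

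Hhip, a membrane-bound protein that binds Hedgehog ligands and limits their action, had another distribution. Epineurial-like cells held 17.5 CPM (10.9 to 26.8) at 3 DPI, 29.2 (18.9 to 43.1) in the uninjured nerve, 141 (110 to 178) in the FACS library and 270.1 (196 to 364) in the bead-treated library. The adult and neonatal intervals did not overlap. Perineurial-like cells held 219 CPM (175 to 271) and 181 CPM (144 to 224) in the neonatal libraries and 0 of 64 cells in the uninjured nerve, where the floor and exact limit are those given for Ptch1. Other mesenchymal-like cells of the neonatal nerve were highest, at 403 and 384 CPM, and at 3 DPI bridge-like cells held 53.4 CPM (40.0 to 69.8) and dividing cells 2.44 CPM. Endoneurial-like cells held 2 UMIs at 3 DPI, 1 in the bead-treated library and 0 in the others.

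Endoneurial-like cells, which held the most Ptch1 of the adult classes at a resolution of 0.4, thus held Hhip at 1.34 CPM at 3 DPI and at 0 in the uninjured nerve. Hhip was lower in endoneurial-like than in epineurial-like cells (log2 difference -5.90 ± 0.71, SE, edgeR adjusted p = 2.10e-06) and lower than in perineurial-like cells (-5.82 ± 0.76, SE, edgeR adjusted p = 1.72e-05, background 4.23% lower and 3.32% higher). Against the mean of the other 6 classes it was higher in epineurial-like (5.14 ± 0.43, edgeR adjusted p = 1.52e-09) and perineurial-like cells (5.05 ± 0.47, adjusted p = 2.18e-08). The other mesenchymal-like cells, left out of these contrasts, held 70% of the Hhip UMIs at 3 DPI, 46.5% in the FACS library and 40.6% in the bead-treated library. Of all UMIs, these cells held 30.6%, 7.96% and 3.99% in the same order. Of the 6 genes, Hhip, Gli1, Gli3 and Smo were higher and Dhh was lower in epineurial-like cells, where 14.2% of genes were higher and 5.76% lower. The Dhh call there (-2.38 ± 0.67, edgeR adjusted p = 0.0109) was lost without the FACS library (adjusted p = 1) and without the uninjured library (adjusted p = 0.0627). In Schwann-like cells Hhip had no UMI in the adult libraries and stood at 6.525 and 5.004 CPM in the neonatal libraries. Fitted values against classes with few or no UMIs are not bounds.

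Gli2 and Gli3, which carry the signal as activators and repressors, were low. Gli2 had 13 to 39 UMIs per library in named classes, and its highest level, 49.4 CPM in uninjured perineurial-like cells, rested on 6 UMIs. Schwann-like cells held 1 Gli2 UMI over the 4 libraries. Gli3 stood at 16.1 CPM in endoneurial-like cells at 3 DPI, 22.6 in the uninjured nerve, 18.1 in the FACS library and 8.52 in the bead-treated library. In epineurial-like cells it was 16.7, 17.5, 20.1 and 25.1 CPM, and the highest value, 46.7 CPM (24.9 to 79.9), was in VSM/pericyte-like cells of the FACS library. In Schwann-like cells no Gli3 UMI was found in the adult libraries, and 1.86 and 7.51 CPM were measured in the FACS and bead-treated neonatal libraries. Gli3 was called higher in endoneurial-like (1.52 ± 0.48, edgeR adjusted p = 0.0245) and epineurial-like cells (1.60 ± 0.49, adjusted p = 0.0204), and both calls were lost without the uninjured library (0.95, adjusted p = 0.248, and 1.36, adjusted p = 0.0767).

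**Figure D3:**
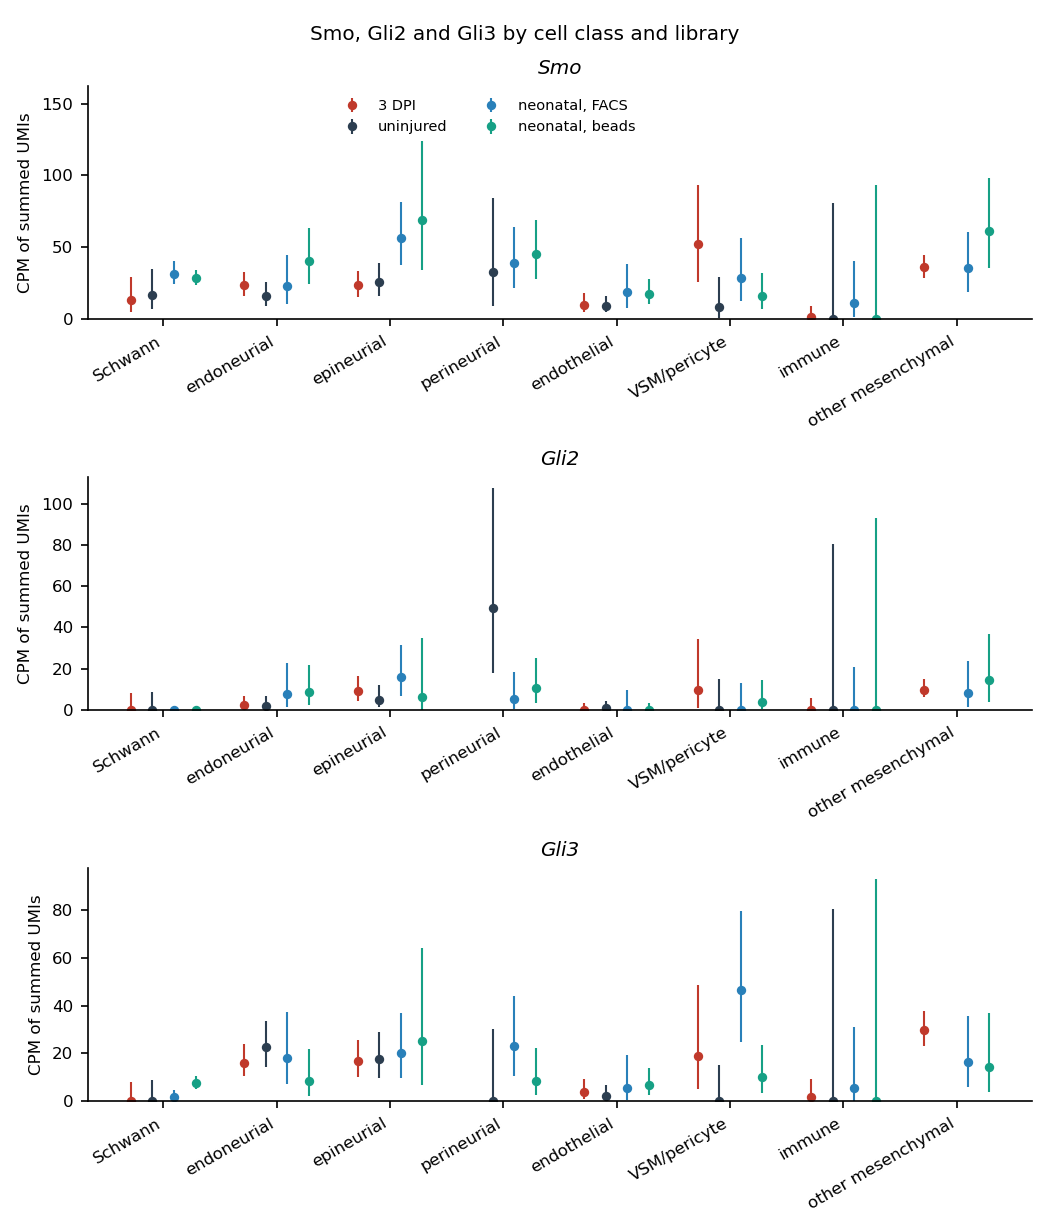
Smo (top), Gli2 (middle) and Gli3 (bottom) by cell class, as CPM of summed UMIs (points) with exact Poisson 95% intervals (bars), each library in its own color. Each library held Smo UMIs in Schwann-like cells and in every mesenchymal-like class, whereas Gli2 and Gli3 were at or near 0 in adult Schwann-like cells.

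**Figure D4:**
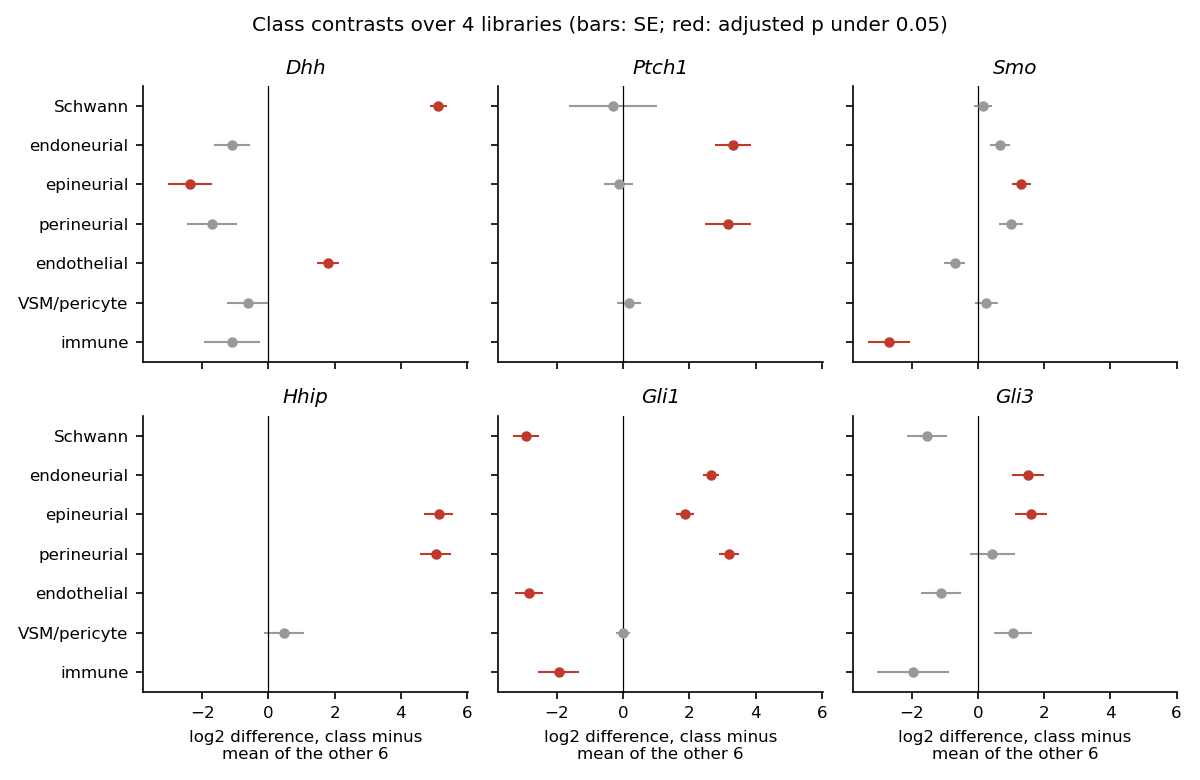
Log2 difference of each tested gene between a class and the mean of the other 6 classes over 4 libraries (points) with its SE (bars), and red points have an edgeR adjusted p under 0.05. Dhh was higher in Schwann-like and endothelial-like cells, and Gli1 was higher in the 3 mesenchymal-like classes and lower in Schwann-like, endothelial-like and immune-like cells. Of the pairs, 2 without a UMI and 4 with an SE over 3 or undefined were not drawn, and the perineurial-like class was present in 3 of the libraries.

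Across the 7 classes, 12 pairs of gene and class were called higher and 5 lower, where the share of all genes called ranged by class from 9.78% to 18.4% higher and from 3.42% to 13.8% lower. In endoneurial-like cells at 3 DPI, Ptch1 and Gli1 were also set beside each other in the same cells. Of the 102 cells with a Gli1 UMI 23.5% had a Ptch1 UMI, against 7.93% of the 164 cells without one. The order was the same in the FACS library, 12% of 25 cells with a Gli1 UMI and 1.59% of 63 without, on 3 and 1 Ptch1 UMIs. It was also the same in the uninjured library, 3.70% of 81 cells and 2.08% of 336, on 4 and 9 Ptch1 UMIs. In the bead-treated neonatal library the order was the opposite, 3.85% of 26 cells with a Gli1 UMI and 5.99% of 167 cells without, on 1 and 11 Ptch1 UMIs. At 3 DPI the median depths of these cells were 7597 and 2159 UMIs, and the Ptch1 levels of 37.6 and 25.1 CPM were closer than the shares. Hhip had no UMI in the Gli1-positive endoneurial-like cells of any library, whereas 60.0% of the Gli1-positive perineurial-like cells of the FACS library, 22.6% of those of the bead-treated neonatal library and 0 of 17 in the uninjured nerve had one. Among perineurial-like cells without a Gli1 UMI, 31.9%, 19.6% and 0 of 47 had a Hhip UMI in the same order. The part of depth in these shares was not tested.

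The 3 DPI library was set beside the uninjured library within each class, as a description of 1 library against 1. In endoneurial-like cells Ptch1 was 2.64-fold higher at 3 DPI (1.41 to 5.30, counting interval), and Gli1 differed by 1.12-fold (0.866 to 1.44). The median ratio of all genes was 1.17, and 19.0% of 11135 genes were at least 2-fold higher and 9.99% at least 2-fold lower, so 1 of the 4 Hedgehog genes with enough UMIs, Ptch1, past 2-fold, is close to that background. After thinning, Ptch1 rested on 5 and 2 UMIs with a ratio of 4.08 (0.668 to 42.8). At a resolution of 0.8, which split the 3 DPI endoneurial-like cells, the 166 that remained held Ptch1 at 30.4 CPM and Gli1 at 112 CPM. The new cluster of 118 perineurial-like cells, with a median of 1016 UMIs, held 44.3 CPM of Ptch1 (17.8 to 91.3), 63.3 CPM of Gli1 and no Hhip UMI.

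In Schwann-like cells the Dhh ratio was 0.680 (0.468 to 0.983), and after thinning it was 0.873 (0.340 to 1.997). Of the 3 genes with enough UMIs in that class, Shh was past 2-fold, where 19.6% of genes were higher and 15.7% lower by that much. In epineurial-like cells Gli1 stood at 1.498 (0.969 to 2.36) and Hhip at 0.601 (0.320 to 1.12), and 0 of 5 genes were past 2-fold, where 11.7% were higher and 4.94% lower. In VSM/pericyte-like cells Smo stood at 6.46 (1.41 to 59.9, 11 against 2 UMIs) and Gli1 at 0.117 (0.0027 to 0.825, 1 against 10 UMIs). At 3 DPI this class was 1 cluster of 77 cells led by Rgs5, Myh11 and Acta2, against 2 clusters in the uninjured nerve, and the part of cluster makeup in both ratios was not tested.

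**Figure D5:**
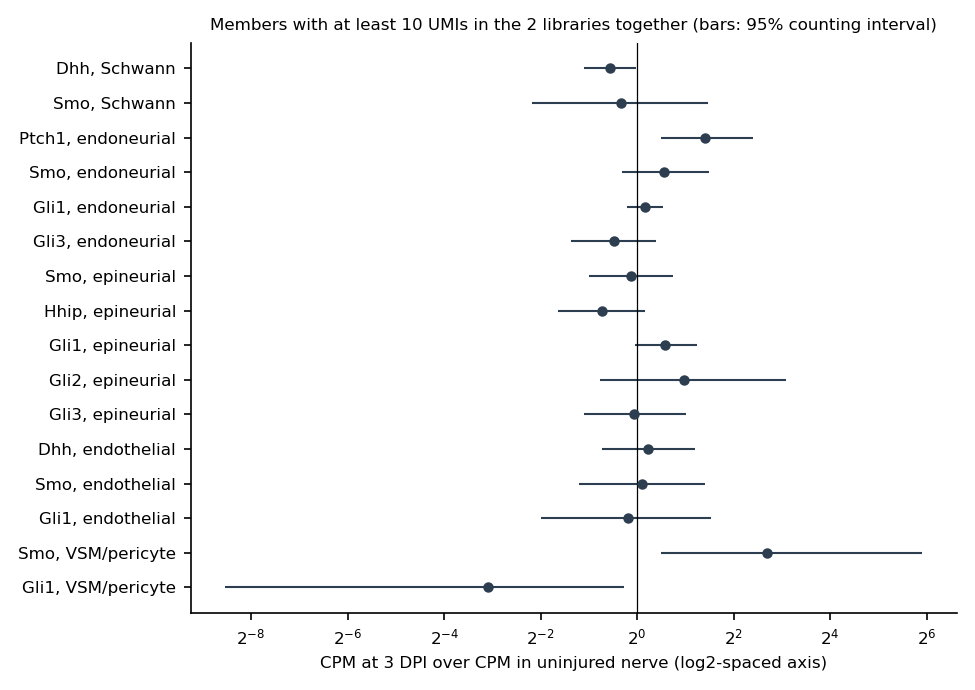
Ratio of CPM at 3 DPI to CPM in the uninjured nerve (points, log2-spaced axis) with its 95% counting interval (bars), for the 16 pairs of gene and class with at least 10 UMIs in the 2 libraries together and UMIs in both. The intervals of Ptch1 in endoneurial-like and Smo in VSM/pericyte-like cells lay above 1, those of Dhh in Schwann-like and Gli1 in VSM/pericyte-like cells lay below 1, and the other 12 included 1.

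The other pathway genes were grouped by role. Of 5 co-receptors and other proteins that hold ligand at the cell surface, 4 were tested. All 4 (Boc, Cdon, Gas1 and Gpc3) were higher in the 3 tested mesenchymal-like classes together (median log2 difference 2.23, all genes -0.06), where 20.1% of all genes were higher. All 4 were also higher in epineurial-like cells (median 4.06), where 14.2% of all genes were higher. In endoneurial-like cells Gpc3 was higher and Boc and Gas1 were lower (median -1.15, all genes -0.01), where 13.9% of all genes were higher and 5.55% lower. In Schwann-like cells 3 were lower and none higher (median -1.74, all genes 0.06), where 13.8% of all genes were lower and 18.4% higher. Boc and Gas1, co-receptors that promote signaling, were lower in endoneurial-like than in epineurial-like cells, with log2 differences of -5.31 ± 0.53 and -4.83 ± 0.38 (SE, edgeR adjusted p = 4.01e-08 and 1.04e-09), and Gpc3, a glypican that competes for ligand, was 1.24 ± 0.36 higher (adjusted p = 0.0256). Gas1 stood at 445 CPM in epineurial-like cells at 3 DPI and 960 CPM in the uninjured nerve, against 14.8 and 33.9 CPM in endoneurial-like cells.

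Of 10 known Gli target genes that are not among the 8, 6 were tested. In endoneurial-like cells Ccnd1, Ccnd2, Foxc2 and Snai1 were higher and none lower (median 1.35, all genes -0.01), where 13.9% of all genes were higher. In epineurial-like cells Ccnd1 was lower and none higher, where 5.76% of all genes were lower. In perineurial-like cells Foxc2 was higher and none lower, where 9.78% of all genes were higher. VSM/pericyte-like cells, in which none of the 6 Hedgehog genes was called, had 3 higher (Foxc2, Ccnd2 and Snai1) and none lower, where 11.8% of all genes were higher. In endothelial-like cells Mycn was higher and Bcl2 lower, where 17.5% of all genes were higher and 12.7% lower. In immune-like cells Foxc2 and Ccnd1 were lower, where 13.7% of all genes were lower. Foxc2, a forkhead factor of mesenchyme, was higher by 3.60 ± 0.36 in endoneurial-like and 4.29 ± 0.40 in perineurial-like cells (SE, edgeR adjusted p = 3.28e-08 and 2.42e-08). In Schwann-like cells Bcl2, Ccnd1 and Mycn were higher and Ccnd2 and Snai1 lower, where 18.4% of all genes were higher and 13.8% lower. The cyclins and Bcl2 are also set by other signals. Of 6 genes of ligand processing and release, 3 were tested, and Scube1, which helps free ligand from the cell surface, was higher in Schwann-like (1.997 ± 0.64), endoneurial-like (2.98 ± 0.62) and perineurial-like cells (3.01 ± 0.80), all past the edgeR threshold (adjusted p = 0.0190, 0.000877 and 0.0113). In Schwann-like cells Scube1 had 1 UMI at 3 DPI (2.22 CPM) and 2 in the uninjured nerve (4.81 CPM), against 23.3 CPM in the FACS and 10.01 CPM in the bead-treated library, and adult endoneurial-like cells held 44.3 CPM at 3 DPI and 11.3 CPM in the uninjured nerve. Disp1, the ligand exporter, was higher in epineurial-like cells (1.28 ± 0.39, edgeR adjusted p = 0.0193). Of 13 relay genes, 9 were tested, and 3 were higher in Schwann-like, 2 in endoneurial-like and 2 in epineurial-like cells, among them Evc2 in all 3 classes, against 18.4%, 13.9% and 14.2% of all genes. Of the relay genes Csnk1a1 was lower in epineurial-like cells, and 3 (Evc, Evc2 and Kif3a) were lower and Csnk1a1 higher in endothelial-like cells, where 12.7% of all genes were lower and 17.5% higher.

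The genes whose levels were most like those of Dhh, Ptch1 and Gli1 were taken over 30 class and library sums and 12015 genes by Pearson's r of log2(CPM + 10). For Dhh they were Slc22a23 (0.943), Arhgef26 (0.934), Slc35f1 (0.929), Igsf11 (0.904) and Brsk2 (0.900). For Ptch1 they were Mum1l1 (0.828), Frem1 (0.806), Gcg (0.798), Kcnk2 (0.797) and Col26a1 (0.777). For Gli1 they were Fzd2 (0.936), Creb3l1 (0.921), Islr (0.921), Gpc3 (0.920) and Pamr1 (0.914). Sums of a library share its depth and free RNA, so these values are a description. By Spearman's rank correlation 0, 0 and 3 of these 5 genes stayed among the first 5.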

How the data were processed

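The authors followed the Drop-seq Alignment Cookbook, and the deposited values were raw counts of UMIs per gene and cell barcode for 4 mouse sciatic nerve libraries, not normalized, with 2000 to 6200 barcodes a library and only genes with a UMI listed. The build is mm10 by the submitters' processing notes. Aligner and annotation: not given in the sources used here. UMIs from the 3′ end merge PCR copies but miss low mRNAs. Depth was 4513814 to 8123103 UMIs per library.

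Barcodes with under 200 genes, over 10% mitochondrial or over 5% hemoglobin UMIs, or a scrublet doublet score in the top 5% were removed. Counts were scaled with scran 1.30.0 and clustered per set in Seurat 5.3.0 (2000 variable genes, 20 components, resolution 0.4), the neonatal libraries together. Neither the variable genes nor the naming used Hedgehog genes. Naming thresholds were set after the clusters had been seen, and the authors' cell assignment was not used. The genes, lists and tests were chosen with earlier results of these data known.

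UMIs were summed per class and library with at least 20 cells and tested with edgeR 4.0.16 (TMM scaling, filterByExpr, quasi-likelihood, library and class terms, two-sided, Benjamini-Hochberg over 10541 genes, threshold 0.05), after a check on simulated data. DESeq2 1.42.0 was an alternative. SEs were derived from the F statistics. Folds against a class without a UMI used a floor of 3 counts. The 8 genes and genes by list were named in every class, and likeness used genes with at least 100 UMIs. A gene of the pathway lists is not reported here, and the list counts and medians leave it out.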

Additional observations from a re-analysis of the deposited data

Results flagged for a closer look

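A signal lay in cells that neither the class levels nor the contrasts used. The 123 unnamed 3 DPI cells, with a median of 453 UMIs, held 5 Gli1 UMIs in 4 cells (71.9 CPM, 23.3 to 168), above the 3 counts that a count of 0 allows. They held 3 Gli3, 2 Gli2 and 1 Smo UMIs and no UMI of Dhh, Shh, Ptch1 or Hhip.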

How the results depend on the processing

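No paired analysis was possible because each group is 1 library, and library was already a term of the class contrasts. Over the alternatives, 406 of the contrast values kept their direction and call, 16 kept the direction and lost the call and 3 counts moved, and no value reversed. Pairs of gene and class called lower rose from 5 to 8 without the low-count filter and to 8 with DESeq2, and ranged from 3 (without the FACS library) to 6 with each library left out. Ptch1 in endoneurial-like minus epineurial-like cells ranged from 1.87 to 4.28 with each library left out. The Dhh difference stayed past the threshold under all 14 alternatives in Schwann-like cells and in endothelial-like cells, as did Gli1 in the mesenchymal-like classes and Hhip between endoneurial-like and epineurial-like cells.

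Thinned to 500 UMIs per cell, Dhh in Schwann-like cells of the FACS library was 233 CPM and in endothelial-like cells of the bead-treated library 75.6 CPM, Ptch1 in endoneurial-like cells was 0 CPM in the FACS and 10.6 CPM in the bead-treated library, Gli1 in uninjured endoneurial-like cells was 77.9 CPM, and the Shh ratio was 5.46. The shared likeness genes fell from 5 to 0 for Dhh, 0 for Ptch1 and 3 for Gli1 by rank correlation. For the moved values of thinning, fewer UMIs were counted. Ptch1, Gli2 and Shh rested on few UMIs, which limits every level of theirs.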
